A study of Homo sapiens with 47 samples.

Results

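The 10 genes described here, PAX2, PAX8, LHX1, WT1, CDH1, CDH2, NES, NEFL, NEFM and ENO2, are genes of the embryonic kidney and of the neural lineage that are used to describe the identity of HEK293T cells. They were chosen by their symbols, with earlier results of these data known, and all 10 were found among the 58395 genes counted. HEK293T is a human embryonic kidney cell line that carries the SV40 large T antigen, and lines of this origin are known to express neuronal genes beside kidney genes. Total RNA, depleted of ribosomal RNA, was sequenced from wild-type and from EAF1-mutant HEK293T cells, in 3 libraries each. In the EAF1-mutant line, CRISPR knock-in replaced amino acids of the MED26-binding site of EAF1 by alanines on both alleles. EAF1 is a subunit of an elongation complex with ELL that works with RNA polymerase II and is recruited by the Mediator subunit MED26. The line is 1 clone, so the mutation and other properties of the clone cannot be told apart. The study's methods describe its repeats as biological replicates, and the labels do not say whether the libraries of a group came from separate cultures. With 1 clone, the p-values measure only the spread between these libraries.

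In the embryo, the kidney arises from intermediate mesoderm, where the transcription factors PAX2, PAX8 and LHX1 are switched on early and act in the nephric duct. WT1 is a zinc finger factor of the kidney mesenchyme and later of the podocyte, the filtering cell of the glomerulus. As the mesenchyme turns into epithelium, it gains E-cadherin (CDH1), the adhesion protein of epithelial cells, while N-cadherin (CDH2) is found in mesenchymal and neural cells. NES encodes nestin, an intermediate filament protein of neural progenitors. NEFL and NEFM encode the light and medium neurofilament chains of axons, which assemble together, and ENO2 encodes the neuronal form of the glycolytic enzyme enolase.

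Total counts were 59137210, 52541541 and 55637032 in wild-type and 57198018, 53369621 and 66611451 in EAF1-mutant libraries. Levels are given as CPM, the counts of a gene relative to the library size corrected by edgeR's TMM factors, and as RPKM, which is CPM per kilobase of the exons of a gene, where different genes are compared. Differences are log2 fold changes of EAF1-mutant against wild-type cells from edgeR's quasi-likelihood test, with p-values adjusted by the Benjamini-Hochberg method over the 28025 genes that passed a filter on low counts. To be called higher or lower, a gene needed an adjusted p under 0.01 and had to differ by more than 0.5 on the log2 scale. EAF1 itself had 57.45, 58.4 and 56.5 CPM in the wild-type libraries and 19.7, 17.9 and 18.75 CPM in the EAF1-mutant libraries. The mutation leaves the RNA countable, so this level does not check the labels. EAF1 was called lower, with a log2 fold change of -1.61 (SE 0.05, adjusted p = 2.48e-18, edgeR). It lies on chromosome arm 3p, whose median is given below with ROBO2. The cause of the fall of EAF1 RNA was not tested.

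In wild-type cells the neurofilament genes and CDH2 had the most RNA per length of the 10 genes, and PAX2 and PAX8 the least. NEFM had 17.2 ± 1.48 RPKM (SD, n = 3), NEFL 13.6 ± 0.444 RPKM and CDH2 12.8 ± 0.0762 RPKM. These levels lay above those of 88.5%, 85.1% and 84.1% of the tested genes, in that order. NES followed with 2.19 ± 0.0793 RPKM, ENO2 with 1.52 ± 0.0102 RPKM and LHX1 with 1.27 ± 0.0332 RPKM. WT1 had 0.696 ± 0.0900 RPKM and CDH1 0.215 ± 0.0168 RPKM. PAX2 was at 0.103 ± 0.0270 RPKM, above 6.19% of the tested genes, and PAX8 at 0.0103 ± 0.00566 RPKM, above 0.347%. No gene overlapped the next in this order over the 3 wild-type libraries. With the length of the longest transcript in place of all exons, CDH2 came first and ENO2 passed NES, so the order among these genes rests on the length used. Of the nephric duct factors, then, LHX1 was at an intermediate level, while PAX2 and PAX8 were close to the lower end of the tested genes, and these data do not show them as abundant markers of the line.

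**Figure D1:**
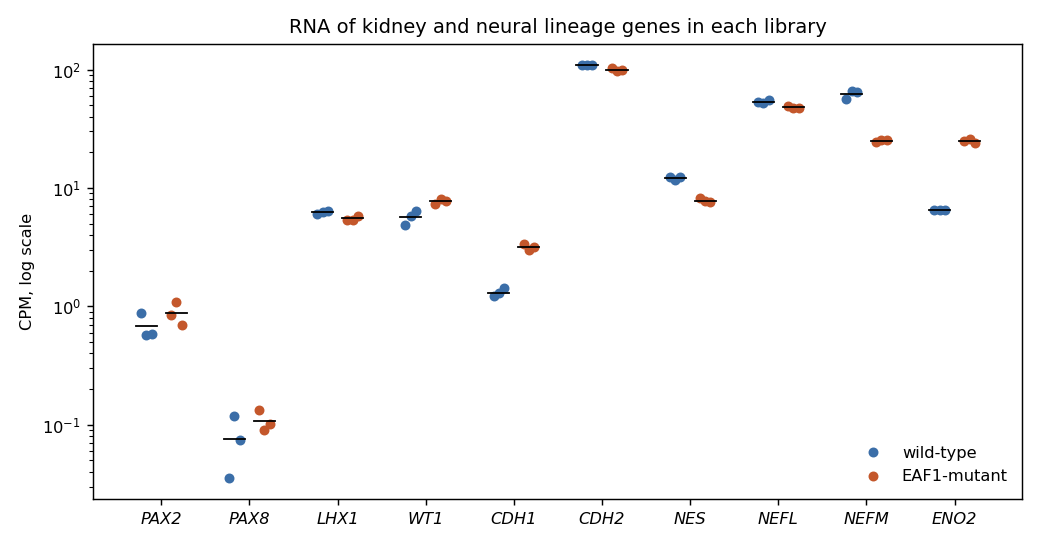
CPM (log axis) of the 10 genes in each of the 3 wild-type and 3 EAF1-mutant libraries, with a black line at the mean of each group. ENO2 and CDH1 lie higher in all EAF1-mutant libraries, NEFM and NES lie lower, and the libraries of the groups overlap for PAX2 and PAX8.

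Of the 10 genes, 9 passed the filter, and 2 of these were called higher in EAF1-mutant cells (ENO2 and CDH1) and 2 lower (NEFM and NES). Over all tested genes, 20.3% were called, 11.0% as higher and 9.36% as lower. These were 3071 and 2624 genes, and without TMM, on library totals, 4169 and 1840, so the split between directions depends on the scaling. At an adjusted p under 0.01 with no limit on the fold change, 7 of the 9 passed, where 41.5% of all tested genes did, but CDH2 and NEFL did not with library totals alone (adjusted p = 0.643 and 0.479, edgeR). Nor did CDH2 without EAF1-mutant replicate 2 or 3 (adjusted p = 0.0224 and 0.0265, edgeR), or NEFL without wild-type replicate 3 or EAF1-mutant replicate 2 or 3 (adjusted p = 0.0147, 0.022 and 0.0227, edgeR). With TMM the same number passed at an adjusted p under 0.05, against 51.5% of all tested genes. The groups did not overlap for 8 of the 9, and for 57.3% of all tested genes. In bulk RNA a change in the number of cells of a kind and a change in RNA per cell cannot be told apart.

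**Figure D2:**
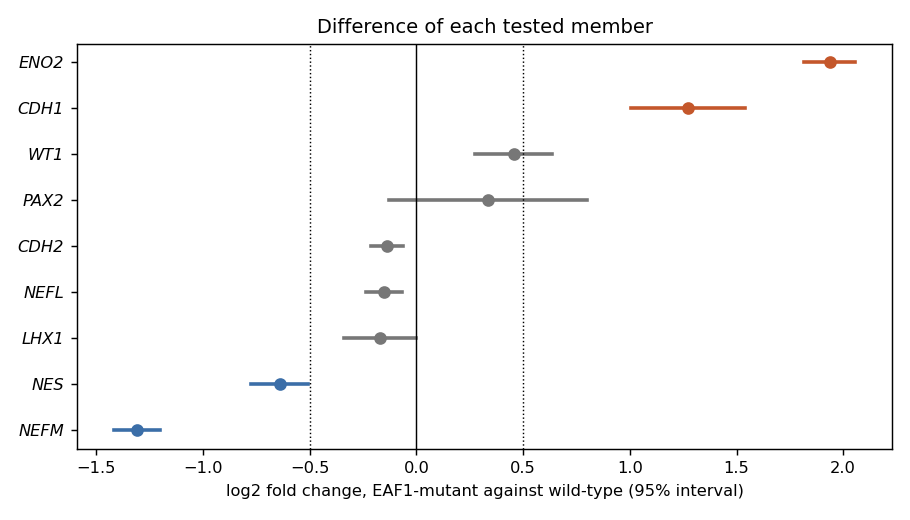
Log2 fold change of EAF1-mutant against wild-type cells for the 9 tested genes, with the 95% confidence interval (edgeR) as a bar and dotted lines at 0.5 and -0.5. Red marks genes called higher, blue genes called lower and grey genes not called.

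The neuronal genes moved in different directions. ENO2 (ENSG00000111674, chromosome 12, 6913745 to 6923698 in GRCh38) had 6.54, 6.47 and 6.465 CPM in the wild-type libraries and 24.85, 25.8 and 24.0 CPM in the EAF1-mutant libraries. Every EAF1-mutant library was far above every wild-type library, and the libraries of a group lay close together. ENO2 RNA was 3.83-fold higher, a log2 fold change of 1.94 (SE 0.06, adjusted p = 6.96e-18, edgeR). Of the other enolase genes, ENO1, the form found in most tissues, was called higher (from 1806 to 2761 CPM), by 0.61 on the log2 scale (adjusted p = 3.84e-13, edgeR), and ENO3, the muscle form, was not called (-0.11, adjusted p = 0.0326, edgeR). The ratio of ENO2 to ENO1 per length was 0.00431, 0.00451 and 0.00432 in wild-type and 0.0109, 0.0114 and 0.0107 in EAF1-mutant libraries. The neuronal form therefore remained a small share of the enolase RNA in both.

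NEFM (ENSG00000104722, chromosome 8, 24913758 to 24919098) had 56.2, 65.9 and 65.1 CPM in wild-type and 24.6, 25.2 and 25.6 CPM in EAF1-mutant libraries. It was 2.48-fold lower, with a log2 fold change of -1.31 (SE 0.05, adjusted p = 1.35e-15, edgeR), and the groups lay well apart. NEFL (ENSG00000277586, chromosome 8, 24950955 to 24956721), whose start lies 43 kb from that of NEFM, had 52.7, 52.1 and 55.4 CPM in wild-type and 49.3, 47.3 and 47.6 CPM in EAF1-mutant libraries. Its groups did not overlap, but the log2 fold change was only -0.15 (95% confidence interval -0.24 to -0.07, adjusted p = 0.00333, edgeR) and it was not called. The 2 chains thus differed in size of change: the ratio of NEFM to NEFL per length was 1.15, 1.37 and 1.27 in wild-type libraries and 0.541, 0.578 and 0.582 in EAF1-mutant libraries. An antisense noncoding gene, ENSG00000272163, shares 960 exon bases with NEFM and had 781, 724 and 796 counts in wild-type and 387, 398 and 451 counts in EAF1-mutant libraries. No source used here gives the strand setting of the counting, so reads of NEFM and of this gene cannot be told apart in the shared bases. All of the 10 genes but PAX2, NES and ENO2 share exon bases with an antisense gene.

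NES (ENSG00000132688, chromosome 1, 156668763 to 156677407) had 12.4, 11.7 and 12.4 CPM in wild-type and 8.16, 7.73 and 7.57 CPM in EAF1-mutant libraries. All EAF1-mutant libraries were lower, by 1.56-fold, with a log2 fold change of -0.64 (SE 0.06, adjusted p = 1.37e-08, edgeR). The genes around it were also lower as a group. The 1197 other tested genes of its chromosome arm, 1q, had a median log2 fold change of -0.30, and the 112 tested genes whose start lies within 2 Mb had one of -0.29, with 6 called higher and 19 lower. The part of the arm in the fall of NES was not tested. For NEFM and ENO2 the medians within 2 Mb were 0.06 (33 genes) and 0.005 (89 genes), and around ENO2 15 genes were called higher and 2 lower. Within 1 Mb of ENO2 the median was 0.03 over 65 genes, with 14 called higher and 1 lower, against 11.0% and 9.36% of all tested genes. The part of the surrounding genes in the rise of ENO2 was not tested. With library totals the medians within 2 Mb were -0.18 for NES, 0.18 for NEFM and 0.12 for ENO2.

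**Figure D3:**
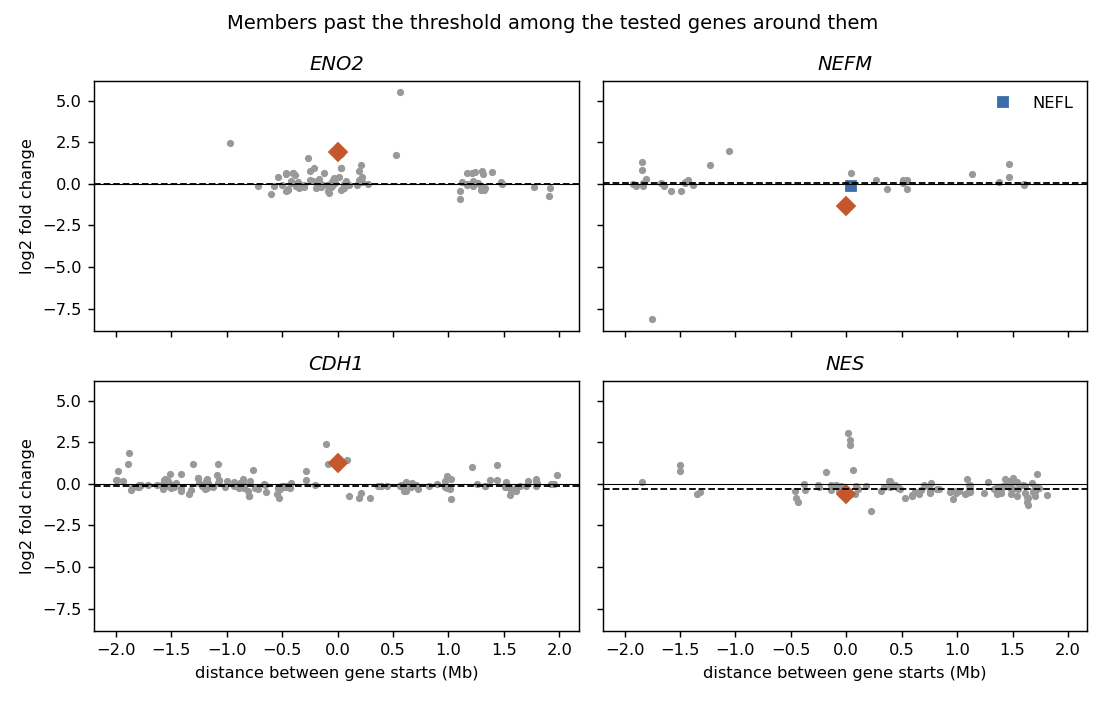
Log2 fold change of the tested genes within 2 Mb of ENO2, NEFM, CDH1 and NES against the distance between gene starts, positive in the direction of transcription. Diamonds mark the named gene, the square marks NEFL and the dashed line is the median of the other genes, which is below 0 around NES (-0.29) and CDH1 (-0.10). With library totals these medians are -0.18 around NES and 0.012 around CDH1.

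Promoter sequences were looked up for the called genes, and RefSeq entries (GRCh38.p14) were found for 6 of the 10 genes, PAX2, PAX8, WT1, CDH2, NES and ENO2. Entries were missing for LHX1, CDH1, NEFL and NEFM. The sequences of ENO2 (chr12:6914330-6914629, plus strand) and NES (chr1:156677358-156677657, minus strand), the called genes with an entry, are shown 5′ to 3′ to compare a gene that rose with one that fell. Capitals mark the GC box GGGCGG or its reverse complement CCGCCC, searched on both strands with overlaps counted.
ENO2: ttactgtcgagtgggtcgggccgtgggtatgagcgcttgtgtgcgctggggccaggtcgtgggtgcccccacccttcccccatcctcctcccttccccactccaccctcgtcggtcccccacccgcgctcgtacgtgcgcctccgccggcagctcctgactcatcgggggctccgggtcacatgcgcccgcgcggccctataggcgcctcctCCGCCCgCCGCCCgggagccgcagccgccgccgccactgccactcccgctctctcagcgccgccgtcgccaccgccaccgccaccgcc
NES: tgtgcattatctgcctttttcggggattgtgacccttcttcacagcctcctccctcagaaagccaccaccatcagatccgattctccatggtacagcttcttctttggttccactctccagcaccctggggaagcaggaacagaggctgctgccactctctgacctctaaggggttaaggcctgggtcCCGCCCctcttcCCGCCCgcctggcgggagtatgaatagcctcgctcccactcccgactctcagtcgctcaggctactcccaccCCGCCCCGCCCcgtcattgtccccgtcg
The windows of 300 bases held 2 GC boxes in ENO2 and 4 in NES, and 44.95% of the 35116 promoter entries held at least 1. The genes that moved in opposite directions both had this motif. The E-box CACCTG or CAGGTG, the letters read by repressors of the SNAI and ZEB families, was in neither. It was found in 1 of the 11 entries of these 6 genes, the second of PAX2, and in 20.6% of all entries. Some of these genes have more than 1 entry, so the entries are not separate genes and nothing is concluded from this share. CDH1 had no entry, so the search did not cover it.

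The cadherins also differed. CDH1 (ENSG00000039068, chromosome 16, 68737292 to 68835537) had 1.22, 1.29 and 1.42 CPM in wild-type and 3.36, 2.97 and 3.17 CPM in EAF1-mutant libraries. It was 2.42-fold higher in EAF1-mutant cells, with no overlap, and the log2 fold change was 1.27 (SE 0.13, adjusted p = 1.37e-08, edgeR). The antisense gene ENSG00000260798, with 347 shared exon bases, had 11, 11 and 4 counts in wild-type and 27, 15 and 40 counts in EAF1-mutant libraries, and as the strand setting is not given, reads of the shared bases cannot be told apart. CDH2 (ENSG00000170558, chromosome 18, 27932879 to 28177946) had 110.0, 109.8 and 108.8 CPM in wild-type and 102.5, 97.8 and 98.3 CPM in EAF1-mutant libraries. Its log2 fold change of -0.14 (95% confidence interval -0.21 to -0.06, adjusted p = 0.00305, edgeR) was below the fold limit. The ratio of CDH1 to CDH2 per length was 0.0157, 0.0165 and 0.0184 in wild-type and 0.0463, 0.0429 and 0.0456 in EAF1-mutant libraries. N-cadherin RNA remained in large excess over E-cadherin RNA in both groups.

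**Figure D4:**
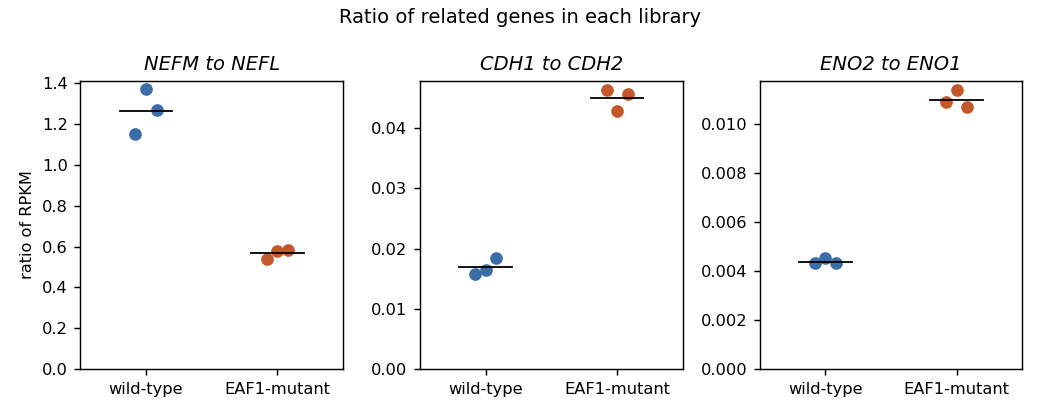
Ratio of RPKM of NEFM to NEFL, CDH1 to CDH2 and ENO2 to ENO1 in each library, on linear axes that start at 0, with a line at the mean of 3 libraries. Means in wild-type and EAF1-mutant cells were 1.27 and 0.567 for NEFM to NEFL, 0.0169 and 0.0449 for CDH1 to CDH2, and 0.00438 and 0.011 for ENO2 to ENO1, and the groups do not overlap.

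None of the 4 kidney transcription factors was called, and PAX8 was too low to be tested. WT1 (ENSG00000184937, chromosome 11, 32387775 to 32435564) had 4.88, 5.76 and 6.33 CPM in wild-type and 7.39, 8.06 and 7.79 CPM in EAF1-mutant libraries. All EAF1-mutant libraries were higher, but the log2 fold change of 0.45 (95% confidence interval 0.27 to 0.64, adjusted p = 1.27e-04, edgeR) was under the fold limit. It was called at 0.57 with library totals alone and at 0.53 without wild-type replicate 3. Its antisense gene WT1-AS, which overlaps it by 47 exon bases, rose from 1.21 to 2.43 CPM (1.01, adjusted p = 1.27e-06, edgeR). LHX1 (ENSG00000273706, chromosome 17, 36936785 to 36944612) had 6.065, 6.25 and 6.39 CPM in wild-type and 5.34, 5.396 and 5.85 CPM in EAF1-mutant libraries. The groups did not overlap, and the log2 fold change of -0.17 (95% confidence interval -0.34 to -0.0027, adjusted p = 0.0839, edgeR) did not pass. The divergent noncoding gene LHX1-DT was not called (0.27, adjusted p = 0.0915, edgeR).

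PAX2 (ENSG00000075891, chromosome 10, 100735396 to 100829944) had 50, 29 and 31 counts in wild-type and 50, 60 and 48 counts in EAF1-mutant libraries. The groups overlapped, and the log2 fold change of 0.33 had a 95% confidence interval from -0.13 to 0.80 (adjusted p = 0.222, edgeR). The interval included a rise of the size of the fold limit but not a fall of that size. PAX8 (ENSG00000125618, chromosome 2, 113215997 to 113278921) had 2, 6 and 4 counts in wild-type and 8, 5 and 7 counts in EAF1-mutant libraries and did not pass the filter. Its antisense gene PAX8-AS1, with 1651 shared exon bases, had 3, 6 and 7 counts and 7, 8 and 12 counts.

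Other genes were read from lists of kidney, neural and adhesion genes, of families related to the 10, and of markers of other cell types. Of 295 genes over all of these lists, 193 were tested, 48 were called higher and 23 lower, and their median log2 fold change was 0.12. Over all tested genes, 11.0% were called higher and 9.36% lower, and the median was 0.01. The lists were chosen with earlier results of these data known, so these counts and medians do not test the lists. Among 19 tested transcription factors of the early kidney, 1 was called higher, FOXC1 (from 113.7 to 166.2 CPM, log2 fold change 0.55), and 2 lower, among them OSR1 (from 0.3425 to 0.114 CPM, -1.57), with a median of -0.14. CITED1, a factor of nephron progenitors, was among the 3 with the most RNA per length and was not called. With RLE factors in place of TMM, without wild-type replicate 1 or 2, or without EAF1-mutant replicate 2 or 3, 3 genes of this list were called lower. With a filter at 1 CPM, 1 was called lower. Of 17 signals and receptors of kidney induction, 5 were called higher and 1 lower, with a median of 0.19. WNT7B, a ligand of the collecting duct, rose from 0.223 to 1.94 CPM (3.11), FGF9 from 1.79 to 5.52 CPM (1.63), the Notch ligand JAG1 from 10.55 to 23.2 CPM (1.14) and the GDNF co-receptor gene GFRA1 from 5.15 to 9.06 CPM (0.81). GDNF itself rose from a level of 0.246 to 0.942 CPM (1.94). JAG1 lies on arm 20p, whose genes had a median log2 fold change of -0.54. ROBO2, on arm 3p, whose genes had a median log2 fold change of -0.78, fell from 19.7 to 6.94 CPM (-1.51).

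Podocyte genes, of which WT1 is a regulator, had the highest list median, 0.69 over 10 tested genes, with 5 called higher and 1 lower. COL4A4 and COL4A3, collagen chains of the glomerular basement membrane, rose from 1.935 to 14.35 CPM (log2 fold change 2.89) and from 1.37 to 6.68 CPM (2.28). Podocalyxin (PODXL) rose from 25.5 to 37.0 CPM (0.53) and CLIC5 from 0.314 to 0.864 CPM (1.43). COL4A5, on arm Xq, with a median of -0.34, fell from 86.9 to 52.96 CPM (-0.71), and 2 genes of the list were called lower without wild-type replicate 2 or without EAF1-mutant replicate 3. Among 10 tested tubule genes, 1 was called higher, GGT1 (from 2.24 to 4.36 CPM, 0.96), and 2 lower, ATP6V1B1 (from 2.53 to 1.49 CPM, -0.76) and CUBN (from 1.415 to 0.838 CPM, -0.75), with a median of -0.02. The transporter genes SLC3A1 and SLC5A2 and the receptor gene LRP2 had the most RNA per length of the list and were not called. With DESeq2, or without wild-type replicate 3 or EAF1-mutant replicate 1, 1 of the tubule genes was called lower.

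**Figure D5:**
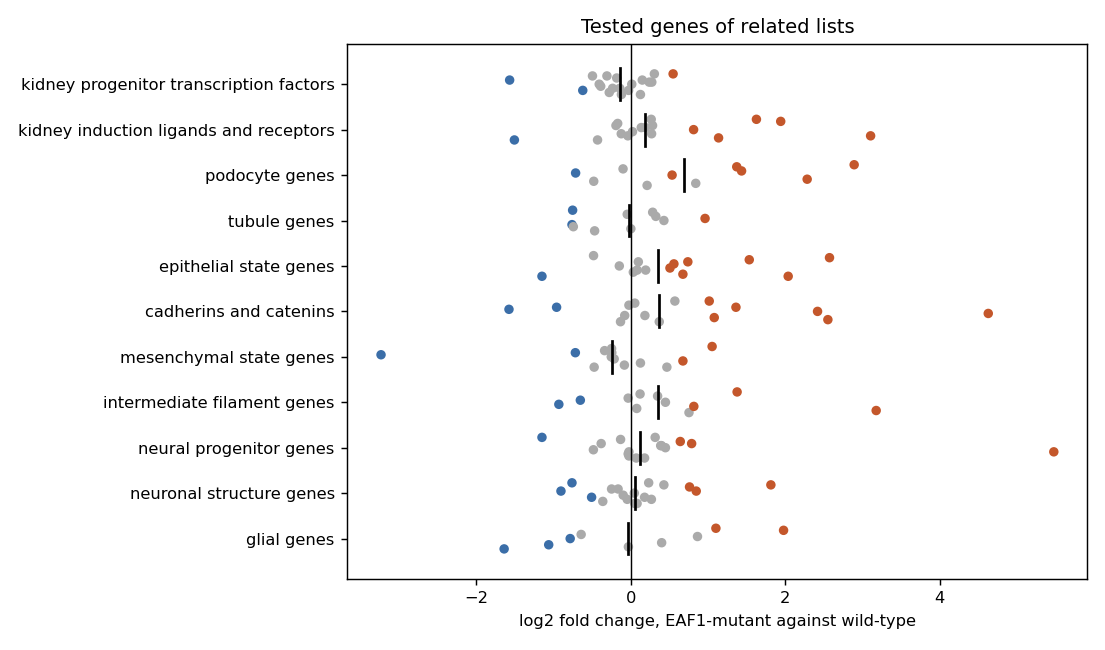
Log2 fold change of EAF1-mutant against wild-type cells for the tested genes of 11 lists, 1 point per gene, with a black line at the median of each list. Red points were called higher, blue points lower and grey points neither, and the median of the podocyte genes, 0.69, lies furthest from 0.

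Epithelial and mesenchymal genes were listed because CDH1 and CDH2 mark these states. Of 14 tested epithelial genes, 7 were called higher and 1 lower, with a median of 0.35. MARVELD2, of tight junctions between 3 cells, rose from 3.89 to 11.3 CPM (log2 fold change 1.53), the desmosomal gene PKP2 from 19.9 to 33.2 CPM (0.74), the transcription factor GRHL1 from 11.4 to 18.2 CPM (0.67) and desmoplakin (DSP), the most abundant, from 310.6 to 457.4 CPM (0.56). OVOL2, on arm 20p like JAG1, fell from 18.8 to 8.496 CPM (-1.15). Among 15 tested cadherins and catenins, 6 were called higher and 2 lower, with a median of 0.37. CDH3, whose start lies at -101.1 kb from that of CDH1, rose from 0.955 to 5.10 CPM (2.42), CDH4 from 1.61 to 9.47 CPM (2.55) and plakoglobin (JUP) from 26.5 to 53.55 CPM (1.02). The median within 2 Mb of CDH1 was -0.10 over 154 genes, with 12 called higher and 7 lower, and 0.012 with library totals. β-catenin (CTNNB1), also on 3p, fell from 629.1 to 323.2 CPM (-0.96).

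Among 13 tested mesenchymal genes, 2 were called higher, SNAI1 (from 0.7975 to 1.66 CPM, log2 fold change 1.05) and MMP2 (from 2.96 to 4.71 CPM, 0.67), and 2 lower, with a median of -0.25. SNAI2, which encodes Slug, a repressor of CDH1, fell from 23.8 to 2.54 CPM (-3.23, adjusted p = 4.17e-20, edgeR), and the integrin gene ITGA5 fell from 37.1 to 22.6 CPM (-0.72). Of these related repressors, Slug RNA thus fell while Snail (SNAI1) RNA rose, from wild-type levels of 7.26 and 0.468 RPKM. Whether either has a part in the level of CDH1 was not tested. Of 11 tested intermediate filament genes, 3 were called higher and 2 lower, with a median of 0.35. Peripherin (PRPH), a neuronal filament protein that assembles with neurofilaments, rose from 1.03 to 9.325 CPM (3.18), and the epithelial keratins KRT8 and KRT18, which pair with each other, rose from 22.9 to 59.4 CPM (1.38) and from 34.4 to 60.5 CPM (0.82). Vimentin (VIM), on arm 10p with a median of -0.28, fell from 380.5 to 199.4 CPM (-0.93), and LMNA, on 1q like NES, fell from 38.3 to 24.4 CPM (-0.65).

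Neural lists were mixed, like the neural genes among the 10. Of 16 tested neural progenitor genes, 3 were called higher and 1 lower, ZIC1 (from 0.932 to 0.416 CPM, log2 fold change -1.15), with a median of 0.12. The Notch target HES5 rose from 0.569 to 25.6 CPM (5.48, adjusted p = 7.85e-21, edgeR), HES1 from 17.3 to 29.85 CPM (0.79) and NOTCH1 from 17.4 to 27.15 CPM (0.64). With library totals alone, 5 genes of this list were called higher, without wild-type replicate 1 or 2, 2 were called lower, and with a filter at 1 CPM, 0 were called lower. Of 18 tested neuronal structure genes, 3 were called higher, MAP2 (from 0.707 to 2.48 CPM, 1.81), SYT1 (from 5.275 to 9.51 CPM, 0.85) and NRCAM (from 23.9 to 40.5 CPM, 0.76), and 3 lower, SYP (from 7.82 to 4.63 CPM, -0.76), DPYSL3 (from 15.6 to 10.96 CPM, -0.51) and GAP43 (from 0.717 to 0.387 CPM, -0.90), with a median of 0.05. With library totals alone or with a filter at 1 CPM, 1 gene of this list was called lower, and without wild-type replicate 3 or any 1 of the EAF1-mutant libraries, 2 were. UCHL1, a neuronal ubiquitin hydrolase with 52.8 RPKM in wild-type cells, was not called (0.43). Among the 15 tested PAX, LIM homeobox, EGR and enolase paralogs, ENO1, EGR1 and EGR2 were called higher and LHX8 lower (from 5.44 to 3.53 CPM, -0.63), with a median of 0.08. Only 1 was called higher with the filter at 1 CPM, and 2 with DESeq2, without wild-type replicate 1 or 3 and without EAF1-mutant replicate 1 or 2.

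Markers of other cells were read as a check on the label of the samples. Blood, endothelial and pluripotency markers had 3, 2 and 2 tested genes, of which 0 were called by edgeR. At an unadjusted p under 0.05 there were 0, 1 (KDR) and 1 (LIN28A), and DESeq2 called 0, 0 and 1. Their summed levels were 2.92, 2.67 and 2.43 CPM (blood), 1.485, 1.44 and 1.46 CPM (endothelial) and 2.37, 2.06 and 2.69 CPM (pluripotency) in wild-type libraries. Of pluripotency markers, 1 was called higher without any 1 of the wild-type libraries or EAF1-mutant replicate 1. Of the colon markers, listed because the study also grew a colon cancer line, CDX2, VIL1 and LGR5 were present in both groups (18.7, 26.4 and 13.9 CPM in wild-type cells). They had adjusted p = 0.0046, 0.0041 and 0.00155 (edgeR) with groups that did not overlap, and log2 fold changes of -0.19, 0.17 and 0.24, under the fold limit. DESeq2 called 0 of these 3, and all had an unadjusted p under 0.05 in edgeR, while CDX1, CEACAM5, CEACAM6 and CDH17 had at most 3 counts per library on average. Fibroblast markers summed to 7.66, 7.855 and 8.37 CPM in wild-type and 10.1, 9.68 and 9.41 CPM in EAF1-mutant libraries. Their 4 tested genes had a median log2 fold change of -0.82. Of these, PDGFRA and COL1A1 were called higher and COL3A1 and LUM lower, 1 fewer higher without wild-type replicate 1, while COL1A2 and DCN had at most 3 counts per library on average. PDGFRA had the highest mean CPM of this list over the 6 libraries, and the part of these markers in the results above was not tested.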

How the data were processed

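RNA-seq was made from 3 wild-type and 3 EAF1-mutant HEK293T libraries, grouped by their labels. Per the labels and methods, ribosomal RNA-depleted stranded libraries were read as paired ends, trimmed, mapped to GRCh38 with HISAT2 and counted with Rsubread on Ensembl genes, and the authors deposited raw counts per gene. The submitters' processing notes list Trimmomatic 0.38, HISAT2 2.3.4.1, R 4.0.2 and DESeq2 1.28.1. How strand and multi-mapped reads were handled is not given in those sources. The deposited counts were fitted in edgeR 4.0.16 (R 4.3.3) after filterByExpr, which left 28025 of 58395 genes, and TMM scaling. Quasi-likelihood p-values were adjusted by Benjamini-Hochberg over all of these. The fit was tested on simulated data. Symbols, positions and exon lengths came from GENCODE v44 for 57754 genes; the others held 2.81% of the counts. RPKM used the union of exons. Depth ran from 52541541 to 66611451 counts per library, and 3 counts came to 0.0434 to 0.0594 CPM. Standard errors and 95% intervals came from the F statistic. Chromosome arms were split at approximate centromere positions entered by hand.

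Genes named were the 10 members, EAF1, and in each list up to 4 rises and 4 falls past the threshold with a mean of at least 1 CPM, the 3 highest wild-type RPKM and every gene with a count in the list of noncoding genes named for a member. Genes under 1 CPM outside this rule were mostly named to complete a count, but OSR1 and CLIC5 do not complete theirs. These genes were chosen after their values were seen, as were the 3 ratios. Some genes that meet this rule are not reported here. The members and lists were chosen with earlier results of these data known. Alternatives were DESeq2 1.42.0, library totals without TMM, RLE factors, leaving out each library, a replicate block, different filters, thresholds and windows, and the longest transcript. PRO-seq, 4C-seq and ChIP-seq were not used here. Python 3.11.15 and matplotlib 3.10.9 drew the plots.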

Additional observations from a re-analysis of the deposited data

How the results depend on the processing

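The calls of ENO2, CDH1, NEFM and NES held, with the same direction, under each of 12 alternatives (DESeq2, scaling, filters, the replicate block and each library left out). ENO2 ranged from 1.91 to 2.05, CDH1 from 1.21 to 1.39, NEFM from -1.39 to -1.19 and NES from -0.68 to -0.53 on the log2 scale. WT1 passed the threshold at 0.57 with library totals and at 0.53 without wild-type replicate 3; with single libraries left out it ranged from 0.34 to 0.53. With library totals alone the median of all tested genes was 0.13 instead of 0.01. LHX1 was then at -0.056 (adjusted p = 0.592, edgeR), CDH2 at -0.022 (adjusted p = 0.643, edgeR) and NEFL at -0.037 (adjusted p = 0.479, edgeR), so CDH2 and NEFL no longer had an adjusted p under 0.01. The same held for CDH2 without EAF1-mutant replicate 2 or 3 and for NEFL without either of these or wild-type replicate 3. PAX2 ranged from 0.16 to 0.57 and was not called under any of the 11 alternatives that tested it. Without the filter PAX8 was at 0.52 (adjusted p = 0.579, edgeR) and not called. At an adjusted p under 0.05 with no fold limit, 4 members were called lower and 7250 genes higher and 7170 lower, with 76 and 54 of the listed genes. At a log2 fold change over 1, 1 member was called lower, 1452 genes higher and 698 lower, with 29 and 10 of the listed genes. The longest transcript changed the place of 5 members in the order of wild-type levels.

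Medians within 2 Mb with library totals were 0.095 near PAX2, 0.049 near PAX8, 0.21 near LHX1, 0.29 near WT1, 0.012 near CDH1 and 0.047 near CDH2. They were then -0.18 near NES, 0.18 near NEFL and NEFM and 0.12 near ENO2. In the main fit they were -0.021 near PAX2, -0.066 near PAX8, 0.092 near LHX1, 0.18 near WT1, -0.10 near CDH1 and -0.068 near CDH2. The sign near PAX2, PAX8, CDH1 and CDH2 thus depends on the scaling. With TMM the median near PAX8 was 0.063 within 1 Mb and 0.031 within 5 Mb. Near CDH2 it was -0.11 and -0.23, and near NEFL 0.018 within 5 Mb. With a filter at 1 CPM, 3 cadherins and catenins were called higher. With the replicate block, 3055 genes were called higher and 2 members higher and 2 lower. Correlations between libraries of the 2 groups were taken after the mean of its group was subtracted from each gene. They were 0.003, -0.114 and 0.05 for libraries with the same number. For libraries with different numbers they ranged from -0.152 to 0.136, so the numbers were not treated as pairs. At this depth PAX8 did not pass the filter, and PAX2 had at most 60 counts in a library. The causes were not tested.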

Other observations

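Glial genes and genes of the sympathetic and adrenal lineage were also listed. Of 9 tested glial genes, 2 were called higher and 3 lower in EAF1-mutant cells, with a median log2 fold change of -0.03. The glutamate transporter SLC1A2 rose from 0.5065 to 2.00 CPM (1.98) and myelin basic protein (MBP) from 2.12 to 4.55 CPM (1.10), while SLC1A3, the most abundant, fell from 63.4 to 36.8 CPM (-0.79), OLIG2 from 2.77 to 1.33 CPM (-1.06) and ALDH1L1 from 0.547 to 0.1765 CPM (-1.64). Of 10 tested sympathoadrenal genes, 4 were called higher and 0 lower (edgeR), with a median of 0.49. At an unadjusted p under 0.05, 1 gene was lower, ISL1, and DESeq2 called 0 lower. HAND1 rose from 12.1 to 21.99 CPM (0.86) and HAND2 from 1.45 to 2.16 CPM (0.58). SCG2 and NR5A1, under 0.3 CPM in both groups, were the others. Only 2 genes of this list were called with DESeq2, with a filter at 1 CPM, and without wild-type replicate 1, wild-type replicate 3 or any 1 of the EAF1-mutant libraries. TH, the first enzyme of catecholamine synthesis, had at most 3 counts per library on average.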
